A study of Mus musculus with 6 samples.

Results

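The genes described code for protein parts of the splicing machinery and were taken by a rule on gene symbols. The rule was set with earlier results of these data known. It took the snRNP proteins (Snrnp followed by a number and Snrpa to Snrpg), the hnRNPs (Hnrnp) and the SR proteins (Srsf). It also took the SF3A and SF3B subunits (Sf3a, Sf3b), the U2AF subunits (U2af), the Prpf factors and Lsm1 to Lsm8. There were 82 such genes among the 23260 gene lines of the count tables, and all 82 were among the 13610 genes with enough counts to be tested. The libraries came from embryonic submandibular glands (eSMGs) of ICR mice at embryonic day 14 (E14), in 3 control tubes and 3 tubes treated for 6 h with 50 µM AMD3100, an antagonist of the chemokine receptor CXCR4. A tube pooled up to 10 glands of whole tissue, so epithelium, mesenchyme and the other cells of the gland were measured together, and a lower level can come from fewer cells of a type or from less RNA per cell, which cannot be told apart. The labels number the tubes 1 to 3 in each group and do not say whether the numbers stand for separate litters or cultures, so p-values measure the spread between these tubes.

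Introns are removed from a transcript by the spliceosome, which is put together anew on each intron from small nuclear ribonucleoproteins (snRNPs), each an RNA with its own proteins. The U1 snRNP marks the 5′ splice site, U2AF and the U2 snRNP with SF3A and SF3B mark the 3′ splice site and the branch point, and the U4/U6.U5 tri-snRNP then joins and is rebuilt into the active enzyme. Sm proteins form a ring on most of these RNAs, and Lsm proteins form a like ring on U6. SR proteins bind exons and usually favour their inclusion, and hnRNPs coat the transcript and often favour skipping, so their balance sets which exons are kept. Most of these genes are transcribed in every cell type of a growing gland. Several SR and hnRNP genes also keep their own level in check by making transcripts with a premature stop, and a count of 3′ ends, which is what was measured here, cannot see the exons of a transcript.

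The libraries held 9051595 to 14393031 counts, of which the ribosomal RNA precursor Rn45s took 16.2% to 32.5%. Levels are given as TMM-normalized CPM (read counts scaled to the size of the library), in which 3 counts correspond to 0.173 to 0.368 CPM. A 3′ library gives 1 tag per transcript, so levels were not divided by length. With Rn45s left out, the 82 genes took 1.45%, 1.49% and 1.87% of the counts of control replicates 1, 2 and 3, and 1.39%, 1.40% and 1.65% of those of AMD3100 replicates 1, 2 and 3. The Wilson 95% interval was 1.38% to 1.39% for the lowest share and 1.86% to 1.88% for the highest, which covers counting error only. Replicate 3 was the highest of each group and stood apart from replicates 1 and 2 in both, so results are also given without it. The family ran from Hnrnpk, at 539 to 1329 CPM, and Snrpd1, at 315 to 1066 CPM, down to Lsm5, at 0.461 to 9.57 CPM, Hnrnpul1, at 0.299 to 7.62 CPM, and Srsf12, which had no count in AMD3100 replicate 2 and at most 2.30 CPM elsewhere.

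Of the 82 genes, 5 were lower in AMD3100-treated eSMGs at a fold change over 1.5 with an unadjusted edgeR p under 0.05, and none was higher. They were Snrnp70, the U1 protein, Snrpf, an Sm protein, and the hnRNP genes Hnrnph3, Hnrnpa1 and Hnrnpf. The same thresholds took 1.28% of all genes tested as lower (174 genes) and 0.397% as higher (54 genes). Because the list was set with earlier results of these data known, these shares only describe it. The other 77 did not pass, and none of the 82 was higher by DESeq2 or limma-voom either. No member, and none of all genes tested (0%), had an adjusted p under 0.05 in this fit (5 members and 228 genes had an unadjusted p under 0.05), where the adjusted p-values of all members rounded to 1.0. With replicate number as a block in the fit, 7 members were lower and none higher, against 2.9% and 1.49% of all genes, and Snrnp70 was the only member of 3 genes (0.022%) with an adjusted p under 0.05 (0.0400). The 2 members added by the block were Sf3b5 and Srsf1. The block takes equal replicate numbers as pairs, which the values of these genes did not bear out for replicates 1 and 2.

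Of the 5 lower genes, Snrnp70, Snrpf and Hnrnph3 had 3′ ends with no near copy elsewhere in the genome, so the promoters of these 3 are shown here. Each runs 5′ to 3′ on the strand of the gene, on GRCm38.p6. Those of Snrnp70 and Snrpf run from 250 bases before to 50 bases after the RefSeq start of the gene. The Hnrnph3 window lies further inside its gene, whose span ends at 63023980, so its start is another one. Capitals mark motif letters found on either strand. They are GC boxes (GGGCGG) and NRF1 motifs for Snrnp70, at chr7:45395693-45395992 on the minus strand. For Hnrnph3, at chr10:63023800-63024099 on the minus strand, a GC box is marked. For Snrpf, at chr10:93589609-93589908 on the minus strand, CCAAT boxes (CCAAT) are marked.
Snrnp70: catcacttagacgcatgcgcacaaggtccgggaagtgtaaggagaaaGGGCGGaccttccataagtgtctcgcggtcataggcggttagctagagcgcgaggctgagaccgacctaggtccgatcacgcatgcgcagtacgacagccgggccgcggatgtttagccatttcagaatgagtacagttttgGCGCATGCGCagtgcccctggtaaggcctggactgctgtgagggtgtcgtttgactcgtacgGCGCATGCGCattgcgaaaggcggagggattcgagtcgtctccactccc
Hnrnph3: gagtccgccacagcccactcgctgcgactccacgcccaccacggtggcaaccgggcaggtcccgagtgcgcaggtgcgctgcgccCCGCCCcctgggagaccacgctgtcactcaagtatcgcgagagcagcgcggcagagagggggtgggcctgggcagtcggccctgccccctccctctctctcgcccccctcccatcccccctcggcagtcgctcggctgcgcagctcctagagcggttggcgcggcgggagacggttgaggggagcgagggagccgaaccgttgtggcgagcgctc
Snrpf: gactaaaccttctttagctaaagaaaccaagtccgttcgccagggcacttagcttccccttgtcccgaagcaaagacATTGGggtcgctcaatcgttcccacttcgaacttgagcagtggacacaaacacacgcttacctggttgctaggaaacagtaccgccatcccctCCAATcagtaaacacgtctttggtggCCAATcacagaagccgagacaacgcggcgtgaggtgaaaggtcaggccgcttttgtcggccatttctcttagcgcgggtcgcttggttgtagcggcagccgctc
The sequences shared none of these motifs across all 3. The Snrnp70 window held 1 GC box and 2 NRF1 motifs, that of Hnrnph3 held 1 GC box, and that of Snrpf held 3 CCAAT boxes and no GC box. None of them held a TATA box (TATAAA), the ETS motif (CCGGAAG) or a CRE motif (TGACGT).

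Across the family, 70 of the 82 genes matched 90 promoters in the RefSeq table. NRF1 motifs were found in 23.3% of these promoters, against 9.29% of the 13123 promoters of genes tested. The ETS motif stood in 31.1% against 16.0%, the CRE motif in 21.1% against 11.03%, the GC box in 72.2% against 61.3% and the CCAAT box in 45.6% against 37.3%. The E-box CACGTG (12.2% against 9.51%) and the TATA box (7.78% against 7.47%) were at more similar shares. Over all 32851 promoters the shares were 4.60% for NRF1, 8.86% for ETS, 7.51% for the CRE motif, 35.7% for the GC box, 37.4% for CCAAT, 7.15% for the E-box and 13.6% for TATA. A match to such letters is a description of the sequence and does not show that a factor binds there.

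Snrnp70, which binds U1 RNA directly and contacts SR proteins at the 5′ splice site, lies on chromosome 7 (7:45376454-45395742 on GRCm38.p6). Its level was 119.7, 167.5 and 286.9 CPM in control replicates 1, 2 and 3, and 55.5, 54.4 and 98.5 CPM in AMD3100 replicates 1, 2 and 3. Every AMD3100 library was below every control library, and within the same replicate number the level was 2.16, 3.08 and 2.91 times lower. The mean fell from 191 ± 86.1 to 69.4 ± 25.2 CPM (SD, n = 3), with a log2 fold change of -1.46 (SE 0.41, edgeR p 0.00644), and with the block it was -1.42 (SE 0.158, p 7.13e-06, adjusted 0.0400). The call was the same under all 14 alternatives. The smallest and largest values with a library removed were -1.04 and -1.82.

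The other U1 proteins did not pass. Snrpa, the U1 A protein, was at 24.9, 32.8 and 33.7 CPM in control and 45.4, 33.5 and 39.5 CPM in AMD3100 libraries, and Snrpc, the U1 C protein, at 29.2, 36.9 and 61.9 CPM against 31.6, 31.0 and 57.5 CPM. Their log2 fold changes were 0.38 (SE 0.30) and -0.09 (SE 0.40). Within a library there were 4.11, 4.53 and 4.63 times as many Snrnp70 as Snrpc tags in control and 1.75, 1.76 and 1.71 times as many in AMD3100 replicates 1 to 3, so this ratio varied little within a group. Against Snrpa the ratio was 4.81, 5.11 and 8.51 in control and 1.22, 1.63 and 2.49 with AMD3100. These ratios, and those given below for other genes, were formed after the values were seen and are given without a test. Simulated reads from the last 300 bases of the genes were checked for places elsewhere where they aligned as well or nearly as well. All from Snrpc (100%) and 63.6% from Snrpa had such a place, and none from Snrnp70 did, so the levels of the first pair are uncertain.

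**Figure D1:**
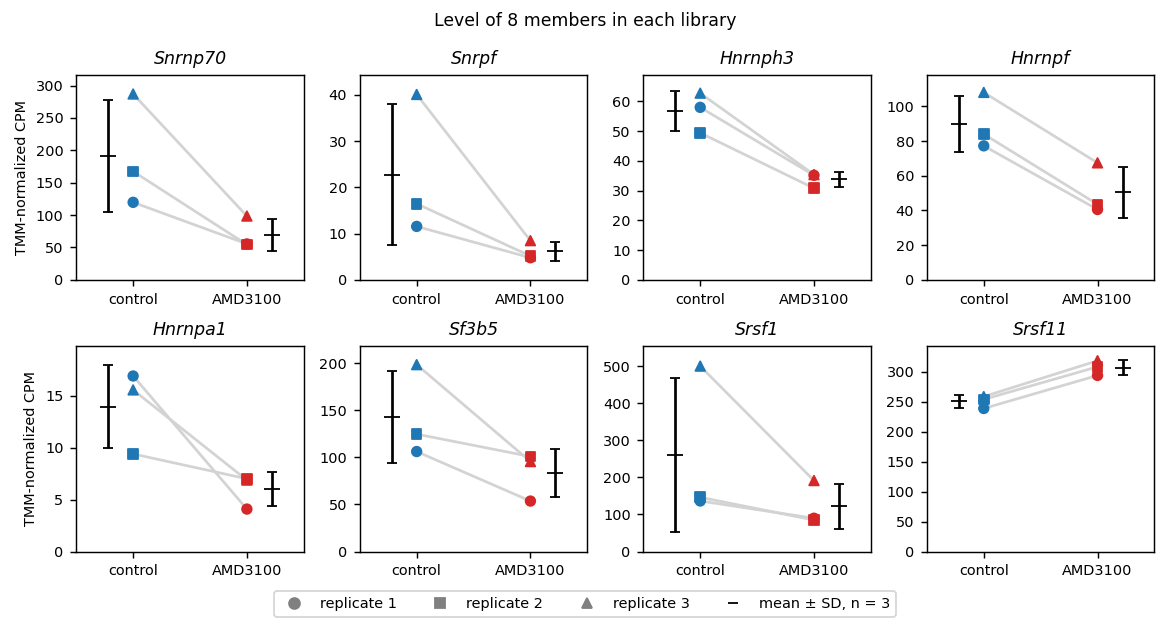
TMM-normalized CPM (vertical axis, from 0) of 8 genes in each library, with control in blue, AMD3100 in red, a marker shape for each replicate number, grey lines between equal numbers and black bars for mean ± SD (n = 3). Snrnp70, Snrpf, Hnrnph3, Hnrnpf, Hnrnpa1 and Sf3b5 are lower in every AMD3100 library than in any control library, Srsf11 is higher in each, and Srsf1 overlaps.

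Snrpf codes for the F protein of the Sm ring, which joins the ring together with the E and G proteins. It was at 11.6, 16.5 and 40.1 CPM in control and 4.78, 5.16 and 8.47 CPM in AMD3100 replicates 1 to 3, from 132, 226 and 402 counts against 83, 56 and 69 counts. The groups did not overlap, and the 3 same-numbered pairs were 2.42, 3.19 and 4.73 times lower. The log2 fold change was -1.89 (SE 0.55, edgeR p 0.00735). Without control replicate 3, its highest library, it was -1.19 and p was 0.0527. On the opposite strand an exon of Ccdc38 overlaps the 3′ end of Snrpf (10:93583029-93589658), and the counting is not stated to use strand, so reads of the 2 genes cannot be told apart. Ccdc38 had 102, 194 and 379 counts in control and 35, 52 and 32 counts in AMD3100 libraries, with a log2 fold change of -2.51 (SE 0.64, p 0.00362).

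The other 6 Sm genes did not pass and had log2 fold changes from -0.15 to 0.17. Snrpe and Snrpg, the partners of the F protein, were at 173, 207 and 380 CPM and at 135, 168 and 306 CPM in control, and at 214, 246 and 320 CPM and 201, 183 and 259 CPM in AMD3100 libraries. A library held 0.0669, 0.0797 and 0.105 Snrpf tags per Snrpe tag in control and 0.0224, 0.0210 and 0.0265 with AMD3100. These groups did not overlap, as those of Snrpf itself did not, and the Snrpf tags may hold reads of Ccdc38. Per Snrpg tag the ratios were 0.0854, 0.0983 and 0.131 against 0.0238, 0.0282 and 0.0328, where 81.8% of Snrpg reads were shared with other copies and none of Snrpe. Snrpd1, the most abundant Sm gene, was at 336, 318 and 1066 CPM in control and 315, 357 and 974 CPM with AMD3100, and its log2 fold change was -0.06 (SE 0.59). In this gene replicate 3 stood apart in both groups, and the treatment groups overlapped.

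The hnRNP genes held 3 of the 5 that were lower. Of the 20, 17 had a log2 fold change below 0 and 3 above, with a median of -0.15. Hnrnph3, which is a member of the hnRNP H and F family that binds runs of G (10:63014664-63023980), was at 58.0, 49.4 and 62.7 CPM in control and 35.1, 30.8 and 35.4 CPM with AMD3100. The spread within each group was small, and the fold was 1.65, 1.60 and 1.77 in replicates 1, 2 and 3. The log2 fold change was -0.75 (SE 0.27, edgeR p 0.0226, adjusted 0.416 with the block). An exon of Rufy2 lies over its 3′ end on the other strand, and Rufy2 had 1005, 1053 and 928 counts in control and 1045, 579 and 496 counts with AMD3100 (log2 fold change -0.56, SE 0.26, p 0.0609). Hnrnph3 was past the threshold in 10 of 14 alternatives. Without control replicate 1, control replicate 3, AMD3100 replicate 1 or AMD3100 replicate 2 its p was 0.0554, 0.0586, 0.0578 and 0.0751.

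Hnrnpf, of the same family (6:117900340-117925622), was at 77.2, 84.0 and 108.0 CPM in control and 40.6, 43.5 and 67.4 CPM with AMD3100. Its groups did not overlap, and its log2 fold change was -0.83 (SE 0.31, edgeR p 0.0273, adjusted 0.229 with the block). Leaving out control replicate 2, control replicate 3, AMD3100 replicate 1 or AMD3100 replicate 2 gave p 0.0528, 0.0785, 0.109 and 0.0995. Hnrnph1, the most abundant gene of this family here, was at 157, 168 and 214 CPM and at 152, 152 and 234 CPM, and its log2 fold change was 0.00 (SE 0.30). Hnrnph2 was at 18.1, 17.9 and 28.02 CPM against 16.2, 21.8 and 19.8 CPM. There were 0.492, 0.501 and 0.504 Hnrnpf tags per Hnrnph1 tag in the control libraries and 0.267, 0.286 and 0.288 in the AMD3100 libraries. For Hnrnph3 these ratios were 0.369, 0.295 and 0.293 against 0.231, 0.202 and 0.151. Over the last 300 bases, 81.8% of Hnrnpf reads, 63.6% of Hnrnph1 reads and 100% of Hnrnph2 reads aligned as well or nearly as well elsewhere, against none of Hnrnph3. Of these 4 genes Hnrnph3 alone had an end with no near copy.

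**Figure D2:**
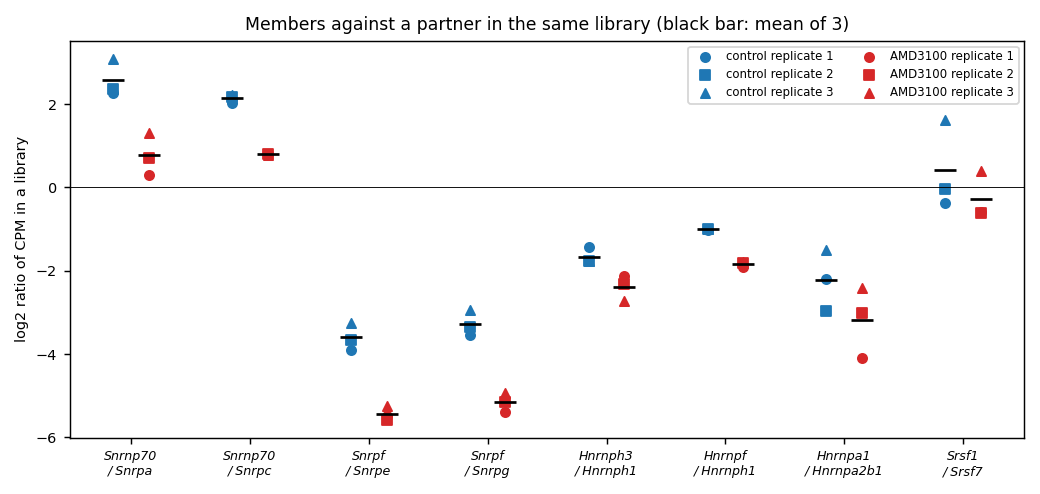
Log2 ratio of the CPM of a gene to that of a partner in the same library (vertical axis), for 8 pairs along the horizontal axis, with control in blue, AMD3100 in red, a marker shape for each replicate and a black bar for the mean of 3. Snrnp70 over Snrpc and Hnrnpf over Hnrnph1 form tight, separate groups, while Hnrnpa1 over Hnrnpa2b1 and Srsf1 over Srsf7 overlap between groups.

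Hnrnpa1, a protein that binds exonic and intronic silencers, was read at low depth in these libraries (15:103239943-103246698). It was at 16.9, 9.40 and 15.6 CPM in control and 4.09, 7.01 and 6.88 CPM with AMD3100. These did not overlap, although control replicate 2 was only 1.34 times above its AMD3100 counterpart. The log2 fold change was -1.22 (SE 0.46, edgeR p 0.0264, adjusted 0.703 with the block). Without control replicate 1, control replicate 3 or AMD3100 replicate 1 its edgeR p was 0.0823, 0.0718 and 0.0910. Of its simulated reads 72.7% were shared with other copies. The transcript used for them had no annotated 3′ untranslated region, so they may miss the end that was sequenced. Hnrnpa2b1, a related hnRNP of the A and B type, was at 77.9, 73.9 and 43.9 CPM against 69.9, 57.0 and 36.8 CPM. Its log2 fold change was -0.26 (SE 0.35).

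The remaining hnRNP genes did not pass by group alone or with the block. Hnrnpk, which binds runs of C and had the highest level of all 82 genes, was at 557, 600 and 1329 CPM in control and 593, 539 and 1036 CPM with AMD3100, with a log2 fold change of -0.20 (SE 0.43). Hnrnpab, at 363 to 399 CPM in all 6 libraries, was among the steadiest, with a log2 fold change of -0.04 (SE 0.25). Hnrnpul1 had the largest difference that did not pass (-1.38, SE 1.08, p 0.235), and its control libraries ran from 0.299 to 7.62 CPM. Hnrnpul2 had the highest log2 fold change of the hnRNP genes, at 0.19 (SE 0.70). Its replicate 3 libraries, at 284 CPM in control and 319 CPM with AMD3100, were above all its others.

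Among the 14 genes of the U2 snRNP and the 3′ splice site, none passed in the fit by group alone and Sf3b5 passed with the block. Sf3b5, a small SF3B subunit, was at 106, 125 and 198 CPM in control and 53.6, 101 and 95.5 CPM with AMD3100, so the groups did not overlap although 1 AMD3100 library came close to the lowest control. The log2 fold change was -0.78 (SE 0.37, edgeR p 0.0635), and with the block it was -0.78 (SE 0.181, p 0.00183, adjusted 0.331). Sf3b5 also passed by limma-voom (p 0.0300) and with replicates 1 and 2 only (p 0.0451). Sf3b2, the most abundant of the group, was at 462, 417 and 469 CPM in control and 425, 478 and 550 CPM with AMD3100. Sf3b1, the subunit that cradles the branch point, had a log2 fold change of -0.03 (SE 0.28). The SF3A subunits ran from -0.01 to 0.18, and the group as a whole from -0.78 to 0.27 with a median of -0.07.

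The SR genes had a median log2 fold change of -0.16 over 11 genes, and none passed in the fit without a block. Srsf1, the best known SR protein, was at 136, 146 and 500 CPM in control and 89.9, 84.9 and 191 CPM with AMD3100. It was lower in each same-numbered pair, by 1.52, 1.72 and 2.61 times, but AMD3100 replicate 3 was above the controls of replicates 1 and 2. The log2 fold change was -1.10 (SE 0.57, edgeR p 0.0854), and with the block it was -0.93 (SE 0.169, p 0.000365, adjusted 0.214). Without control replicate 3 it was -0.20 (p 0.631), without AMD3100 replicate 3 it was -1.60 (p 0.0201), and with replicates 1 and 2 only it was -0.70 (p 0.00165). Srsf1 also passed by limma-voom (p 0.0460) and with no filter on low counts (p 0.0474). Srsf3, the most abundant SR gene, was at 249, 284 and 369 CPM against 272, 257 and 277 CPM, with a log2 fold change of -0.16 (SE 0.28).

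Srsf7 and Srsf11 were the SR genes whose groups did not overlap. Srsf7 was at 176, 149 and 162 CPM in control and 135, 131 and 145 CPM with AMD3100, a small difference (-0.25, SE 0.26, p 0.360). Srsf11 was the only one of the 82 genes with every AMD3100 library above every control library, at 239, 254 and 258 CPM against 294, 308 and 318 CPM. Its log2 fold change was 0.29 (SE 0.25, p 0.280), under the 1.5-fold limit. Over all members, 8 were lower in every AMD3100 library (Snrnp70, Snrpf, Hnrnph3, Hnrnpf, Hnrnpa1, Sf3b5, Srsf7 and Prpf18) and 1 was higher, against 4.17% and 3.28% of all genes tested. An exact two-sided permutation test of 3 libraries against 3 cannot go below 0.1, and groups that do not overlap always give that value. It gave 0.1 for the first 6 of these and for Prpf18 and was not run for Srsf7. The outcome was fixed by how these genes were chosen and is no further evidence.

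No gene of the tri-snRNP, of the Lsm rings, of the minor spliceosome or of the other Prpf factors passed by group alone or with the block. Prpf18, a factor of the final splicing step, had the lowest p of the 11 tri-snRNP genes and was at 15.6, 15.9 and 19.7 CPM in control and 9.39, 13.4 and 13.3 CPM with AMD3100 (log2 fold change -0.51, SE 0.36, p 0.191). Prpf38b, the most abundant of the group, was at 159, 148 and 148 CPM against 142, 248 and 179 CPM (0.32, SE 0.30). Prpf8, the core of the U5 snRNP, was at 136, 135 and 31.0 CPM against 80.2, 96.9 and 34.9 CPM (-0.51, SE 0.57). Prpf8 was past the thresholds with replicates 1 and 2 only (-0.62, edgeR p 0.00497). It also passed without control replicate 3 (-0.94, edgeR p 0.0478), in a fit that keeps the low AMD3100 replicate 3 library.

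In the Lsm group, Lsm6 was the most abundant, at 61.2, 71.5 and 460 CPM in control and 77.4, 88.9 and 425 CPM with AMD3100. The groups had nearly the same mean (197 CPM in each), and the spread was that of replicate 3. Lsm5 had the lowest p of the Lsm genes (0.228) and few counts, at 4.11, 2.62 and 9.57 CPM against 2.19, 0.461 and 4.30 CPM, and 90.9% of its simulated reads were shared with other copies. Of the minor spliceosome, which removes a rare class of introns, Snrnp48 was at 52.4, 66.8 and 85.1 CPM against 63.8, 65.6 and 99.2 CPM and Snrnp25 at 43.8, 47.8 and 63.9 CPM against 34.8, 42.2 and 58.8 CPM. Snrnp35, of the same group, was at 4.99, 5.68 and 21.7 CPM against 8.41, 11.7 and 18.8 CPM (log2 fold change 0.26, SE 0.64). It passed as higher without control replicate 3 (1.29, edgeR p 0.0494), in a fit that keeps the high AMD3100 replicate 3 library. Prpf19, a ubiquitin ligase of the spliceosome, was at 89.3, 94.5 and 241 CPM against 86.5, 86.1 and 202 CPM.

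**Figure D3:**
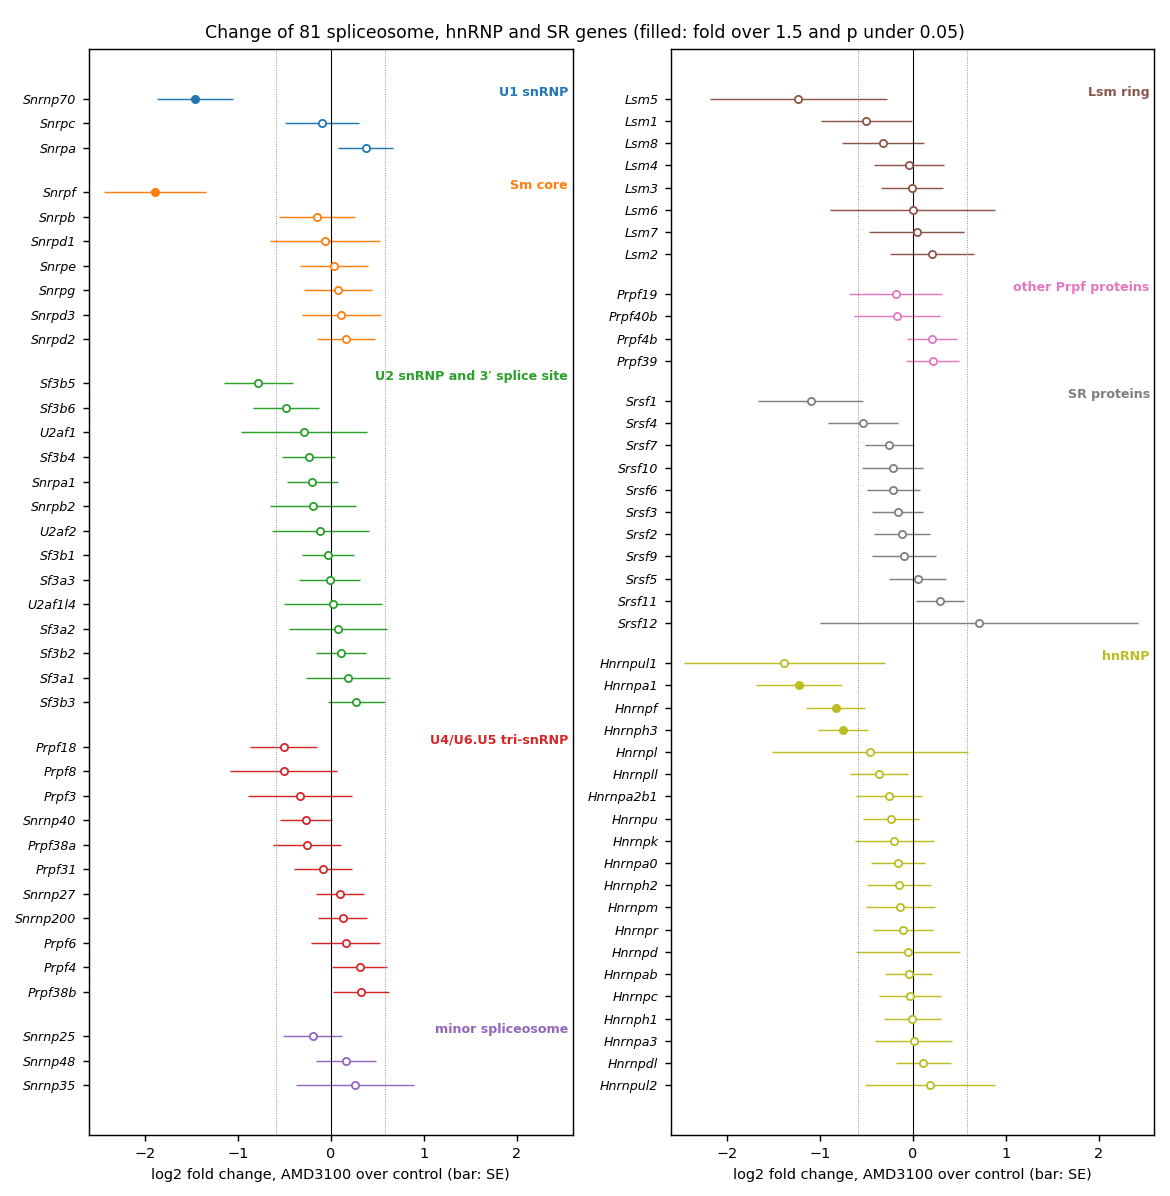
Log2 fold change of AMD3100 over control (horizontal axis) with its standard error (bar) for 81 of the 82 genes, in colour by role. Filled points are the 5 genes past a fold of 1.5 (dotted lines) with p under 0.05, and the other genes lie on either side of 0.

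Taken as a list, 54 of the 82 genes had a log2 fold change below 0 (65.9%) and 28 above, while 47.8% of all genes tested were below 0. The median was -0.10, with quartiles of -0.26 and 0.09, against a median of 0.02 and quartiles of -0.28 and 0.27 over all genes. There were 72 genes within a 1.5-fold change, and 5 more were outside it without a p under 0.05 (Srsf1, Sf3b5, Lsm5, Hnrnpul1 and Srsf12). Within same-numbered pairs, the median log2 difference of the members was -0.07, -0.15 and -0.13 in replicates 1, 2 and 3 (SD 0.0455 over the pairs), and 0.02, -0.01 and 0.02 over all genes. In all 3 pairs, 22 members were lower and 8 were higher, against 14.6% and 15.7% of all genes. Without control replicate 3 the median of the members was 0.09.

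Splicing genes outside the symbol rule were counted from a list of 86 by known role, with kinases of SR proteins, helicases, the exon junction complex, PTB, MBNL and other regulators, and the SMN complex that loads Sm rings. Of these, 82 were tested, and none passed in either direction by edgeR, where no unadjusted p was under 0.05, or by DESeq2 or limma-voom. Their median log2 fold change was 0.06, with 32 below 0 and 50 above. With the block, 1 was lower, Ewsr1 (-0.75, p 0.00959), and no adjusted p was under 0.05.

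As in genes at large, replicate 3 stood apart from replicates 1 and 2 in many of these genes. The sizes given below for replicate 3 set 1 library against the mean of 2, and those for treatment set 3 libraries against 3. They are not like for like, and the former measure varies more with the spread between libraries. Both replicate 3 libraries were above the other 4 in 33 of the 82 genes and below them in 14, so 57.3% stood outside, against 44.2% of all genes tested (23.1% above and 21.1% below). The median size of the log2 difference between replicate 3 and the mean of replicates 1 and 2 was 0.742 in control and 0.517 in AMD3100 libraries, whereas the median size of the log2 fold change of treatment was 0.193. Over all genes tested these values were 0.756, 0.721 and 0.276. The difference had the same sign in both groups for 73 genes (89.0%, against 75.5% of all genes), and its correlation between control and AMD3100 across the 82 genes was 0.797 (0.549 across all genes), where each group gives 1 replicate 3 library. It was over 1 in both groups for 13 genes (15.9%) and under -1 in both for 5 (6.10%), against 11.4% and 9.001% of all genes.

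The genes named next were chosen for the size of this difference, after the values were seen. Hnrnpl, which binds CA repeats, was at 139, 179 and 1339 CPM in control and 133, 91.0 and 979 CPM with AMD3100. U2af1, the small U2AF subunit that reads the AG of the 3′ splice site, was at 111, 112 and 394 CPM against 84.2, 85.8 and 336 CPM, with 90.9% of its reads shared with other copies. Its partner U2af2, which reads the tract of pyrimidines, went the other way, at 385, 442 and 125 CPM against 366, 368 and 147 CPM, with 100% of its reads shared. Hnrnpd, also called AUF1, was at 230, 224 and 69.8 CPM against 212, 227 and 66.8 CPM. In these genes both replicate 3 libraries lay on the same side of the other 4, and the treatment groups overlapped. Within same-numbered pairs Hnrnpl and U2af1 were lower with AMD3100 in all 3, with block log2 fold changes of -0.49 (p 0.0148, adjusted 0.666) and -0.34 (p 0.0266, adjusted 0.703), which are under the 1.5-fold limit. Both passed without AMD3100 replicate 3, at -2.32 (edgeR p 0.0284) and -1.29 (edgeR p 0.0464). That fit keeps the high control replicate 3 library with no AMD3100 counterpart, so the replicate 3 difference cannot be told apart from treatment.

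**Figure D4:**
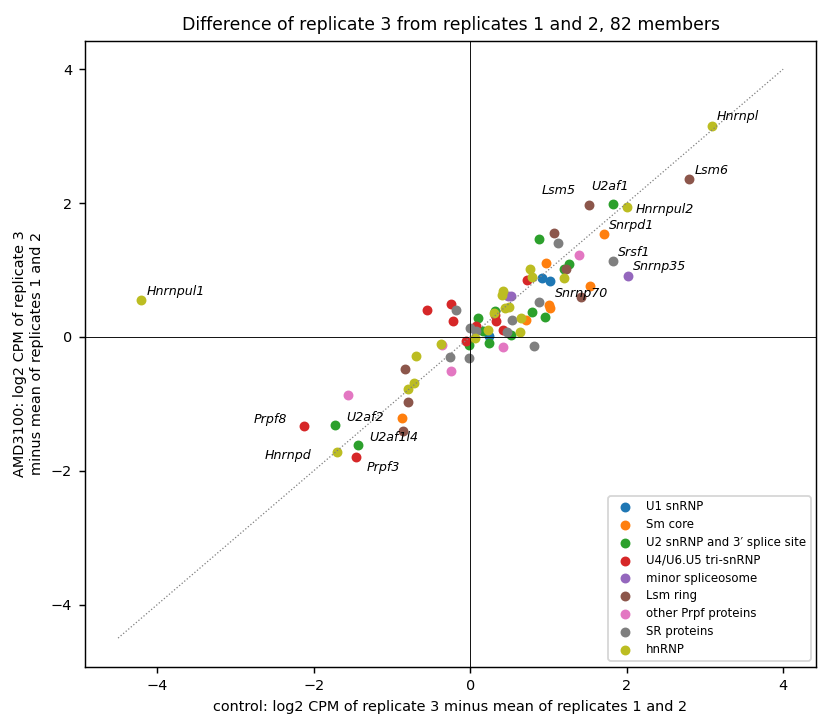
Log2 CPM of replicate 3 minus the mean of replicates 1 and 2 in control (horizontal axis) and AMD3100 libraries (vertical axis), 1 point per gene, in colour by role, with the line of equal values dotted. Most of the 82 genes lie near the line, from Hnrnpd, Prpf8 and U2af2 at the lower left to Hnrnpl and Lsm6 at the upper right, and Hnrnpul1 lies apart.

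Sums of marker genes did not overlap between the groups in 1 of 7 lists, the epithelium, and some sums differed in replicate 3. Their part in these results was not tested. Summed CPM of 9 salivary epithelium markers was 2213, 2203 and 1473 in control and 2637, 2322 and 3432 in AMD3100 replicates 1 to 3. These did not overlap, and replicate 3 was the lowest control but the highest AMD3100 library. The sums of every other list overlapped between the groups. That of 8 mesenchyme markers was 1739 to 3930 in control and 1496 to 3852 with AMD3100, lowest in replicate 3 of both groups. The 6 skeletal muscle markers summed to 265 to 1059 CPM in control and 134 to 1398 CPM with AMD3100, highest in replicate 3 of both. Endothelial markers lay at 23.7 to 34.0 and 15.6 to 44.4 CPM, erythroid markers at 4851 to 13827 and 4808 to 7525, macrophage markers at 62.1 to 190 and 85.5 to 155, and neuron markers at 456 to 592 and 398 to 732. No marker of the 7 lists passed the thresholds in either direction, and none of those present in the files was at 0 in every library. With replicates 1 and 2 only, 7 members were lower and none higher, against 2.48% and 1.91% of all genes. Of the 5 genes above, 4 were among them (all but Hnrnpa1, p 0.0648), and Snrnp70 had a log2 fold change of -1.39.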

How the data were processed

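The 3′ mRNA libraries were made by the authors with a QuantSeq kit from TRIzol RNA of E14 eSMGs and read in single reads of 50 bases. Bowtie2, edgeR and mm10 are named in the submitters' processing notes, with no versions, and the counter and its use of strand are not given in the sources used here. The authors deposited raw read counts per gene symbol for each of the 6 libraries, with no normalization or filter. Each table listed 23282 lines, and 22 repeated lines with the same counts were left out. Groups and replicate numbers came from the sample labels.

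The counts were tested on the whole table with edgeR 4.0.16 in R 4.3.3, with TMM, filterByExpr, glmQLFit and glmQLFTest, group as the only term, and Benjamini-Hochberg adjustment over 13610 genes. A fold change over 1.5 and unadjusted p under 0.05, the thresholds in the main text of the study, were used, while a caption of it gives a log2 fold change of at least 1. The study names quantile normalization and a test per gene of normalized values, and edgeR was used in its place because the files hold counts. The biological coefficient of variation was 0.579. The fits were also run on simulated counts that held no replicate 3 difference, so that run does not test how they handle it. The alternatives were upper quartile scaling, DESeq2 1.42.0, limma-voom (limma 3.58.1) on quantile-normalized values, other count filters, a replicate block, Rn45s left out and each replicate left out. Replicates 1 and 2 only was added after seeing the data.

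The replicate block took equal numbers as pairs, which the labels do not state, and the main fit used no pairing. Deviations of same-numbered libraries from their group means correlated across all genes at 0.156, 0.147 and 0.549 for replicates 1, 2 and 3. However, control replicate 2 also correlated with AMD3100 replicate 1 (0.167), so replicates 1 and 2 are not separated by this. Among the members, control replicate 2 correlated with AMD3100 replicate 1 at 0.739, and control replicate 1 with AMD3100 replicate 2 at 0.636. Same-numbered values were 0.227, 0.250 and 0.797 for replicates 1, 2 and 3. Deviations within a group cancel out, so a shared replicate 3 difference by itself makes correlations among replicates 1 and 2 positive.

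Members and lists were chosen with earlier results of these data known. The genes named are Snrnp70 and Hnrnph3, members with p under 0.05 or an adjusted p under 0.05 with the block, and in each role group the member with the highest mean CPM and that with the lowest p; others were named after their values were seen. A gene that this rule also takes is not reported here. Positions and promoters came from RefSeq on GRCm38.p6, the same build as mm10, with motifs searched on either strand. Uniqueness of 3′ ends was checked with reads of 50 bases every 25 bases from the last 300 bases of each gene in GENCODE vM1 on NCBIM37, aligned with minimap2 2.31-r1302. That is an older build, and none of its coordinates are given. A read was called shared when its next best alignment scored within a mismatch of its best.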

Additional observations from a re-analysis of the deposited data

How the results depend on the processing

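The 5 lower members numbered 5 to 7 under DESeq2, upper quartile normalization, limma-voom, both other filters, the replicate block and without Rn45s, and the same 5 genes were among them each time. With 1 library left out, 2 to 8 members passed: 2 without AMD3100 replicate 1 (Snrnp70 and Snrpf), 3 without control replicate 1 or AMD3100 replicate 2, and 8 without AMD3100 replicate 3. Without control replicate 3, 4 passed, Snrnp70, Hnrnpul1 and Prpf8 as lower and Snrnp35 as higher, and only Snrnp70 was shared with the 5. Leaving out 1 replicate 3 library keeps that of the other group, so the difference of replicate 3 enters these fold changes. The count of members with an adjusted p under 0.05 was 1 under the replicate block and 0 under the other alternatives. Beyond Snrnp70, Sf3b5 and Srsf1 in the block, 1 gene of the other splicing list passed, and the block changed no other call. That list had 1 gene past the thresholds with replicates 1 and 2 only and 0 to 3 with 1 library left out. The median log2 fold change of the members lay between -0.20 and 0.087 with 1 library left out, and its sign turned without control replicate 3. The log2 fold change of Lsm6 changed sign under DESeq2 (0.0026), limma-voom (0.16), no filter (0.0011), the replicate block (0.18) and replicates 1 and 2 only (0.32), and that of Snrpd1 with replicates 1 and 2 only (0.034). With 1 library left out, Lsm6 ran from -1.27 to 1.59, Hnrnpk from -0.57 to 0.33, Prpf19 from -0.73 to 0.45, Snrpd1 from -0.79 to 0.76, Srsf3 from -0.29 to 0.018, Sf3b2 from -0.0076 to 0.19 and Snrnp48 from -0.087 to 0.36. Over all genes, 228 passed, against 598 with the block, 547 without control replicate 3, 451 without AMD3100 replicate 3 and 613 with replicates 1 and 2 only. DESeq2 gave 325, with an adjusted p under 0.05 for 5 genes and no member. The causes were not tested. Depth limits Lsm5, Hnrnpul1 and Srsf12, which were at or near the level of 3 counts in a library.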
